A study of Mus musculus with 2 samples.

Results

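The aldo-keto reductases of the Akr1 group were examined in a mouse rectal carcinoma line and in cells of that line recovered from the lung. The group was taken as 10 named genes, 6 of the Akr1c subfamily and 4 of the Akr1a and Akr1b subfamilies, and as every probe set that the platform annotation gives to 1 of these symbols. This found 11 probe sets for 8 of the 10 genes, among 18193 genes named on the array. Akr1c6, Akr1c12, Akr1c13, Akr1c14, Akr1c18, Akr1c19 and Akr1b8 had 1 probe set each, and Akr1a1 had 4. Signals of Akr1b3 and Akr1b7 were not analysed here, and Akr1b7 enters only by the sequence before its gene start. The family was chosen by the log2 ratios of these same arrays, in which Akr1c18 and Akr1c14 stood out, so the ratios below describe the group and no test is attached to them.

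The parental sample was CMT-93, a rectal carcinoma line of the mouse. The other sample, CMT-93-PM1, was the same line after injection into the tail vein of 6-week-old female C57BL/6 mice, recovery from lung tumours 8 weeks later and primary culture of the tumour tissue. The labels describe no transgene or drug in either sample, both were grown in the same medium with serum, and the number of mice or tumours behind CMT-93-PM1 is not stated. Total RNA of each culture, 6 µg, was labelled with biotin and hybridised to 1 array. With 1 array per line there is no replicate and no test between the lines, and the lines cannot be told apart from effects of culture, labelling or array.

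Aldo-keto reductases are soluble enzymes that use NADPH or NADH to turn aldehydes and ketones into alcohols. Enzymes of the Akr1c subfamily act mainly on steroids and prostaglandins, and in the mouse their genes lie side by side on chromosome 13. Akr1a1 is the general aldehyde reductase, which in the mouse also serves ascorbate synthesis. The Akr1b genes include aldose reductase, which makes sorbitol from glucose, and relatives such as Akr1b8, a reductase of lipid-derived and other reactive aldehydes. Several of these enzymes are abundant in the gut and liver, where they clear carbonyl compounds.

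Values are log2 signals as deposited, and a ratio is the lung-recovered minus the parental log2 signal. Signals at or under the 40th percentile of an array, 4.69 for parental and 4.59 for lung-recovered cells, were taken as the floor. Genes under the floor throughout count as unmeasured, which left 13332 measured genes with a median ratio of 0. The only spread available is that between probe sets of 1 gene on these arrays, with a median SD of 0.17 and a 90th percentile of 0.49 over 5782 genes with several probe sets above both floors. Epithelial markers were present in both lines, with Epcam, Cdh1, Krt8, Krt18, Krt19, Cdx2 and Cdh17 above the floor and Krt20, Cdx1, Vil1 and Lgals4 at the floor on both arrays.

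Of the 6 Akr1c genes, 5 were at least 2-fold lower in the lung-recovered line and 0 higher, where 2.55% of all measured genes were at least 2-fold lower and 4.42% at least 2-fold higher. All 6 had ratios below 0, as did 48.7% of measured genes, and their median ratio was -1.55. Because this contrast was in view when the genes were picked, these counts are descriptive. Among the Akr1a and Akr1b genes with a probe set, Akr1a1 and Akr1b8, 0 of 2 passed 2-fold in either direction, and their median ratio was -0.24. The medians of the subfamilies differed by -1.32, without a test. The ranges overlapped, since Akr1c6, at -0.19, had a ratio 0.50 above that of Akr1b8. In cultures measured in bulk, fewer cells of a type and less RNA per cell cannot be told apart.

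**Figure D1:**
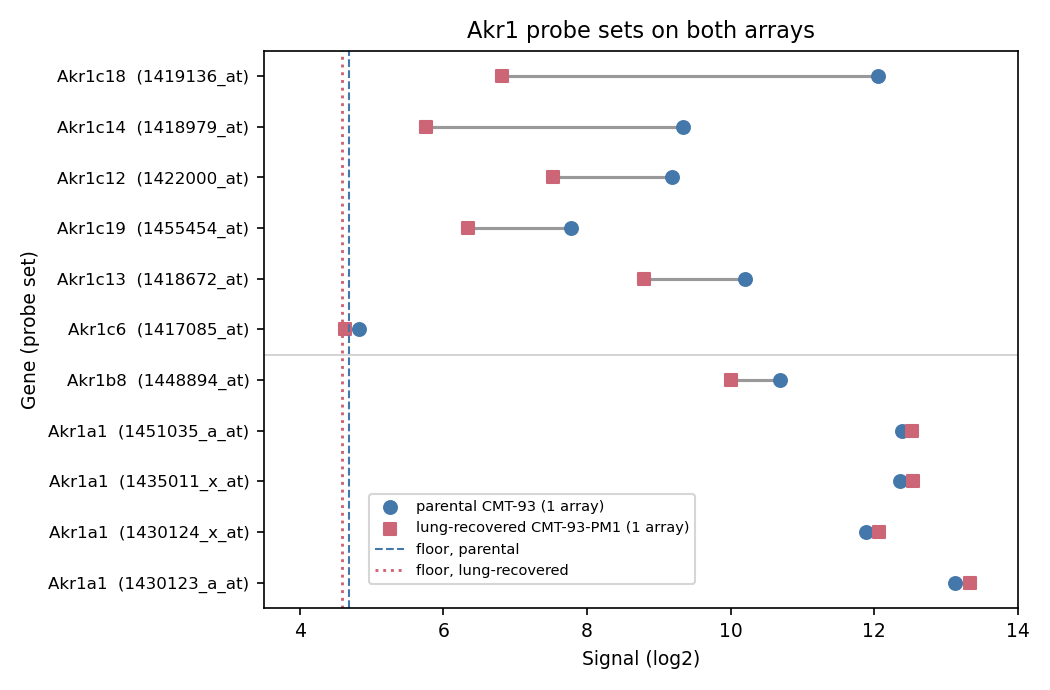
Log2 signal (horizontal axis) of each of the 11 Akr1 probe sets (rows) on the parental array (circles) and the lung-recovered array (squares), with the floor of each array as a vertical line and no error bars, since each line has 1 array. The 5 lower Akr1c genes have squares well to the left of their circles, from 12.05 to 6.81 for Akr1c18, while the symbols of each Akr1a1 probe set nearly touch.

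The lowest ratios of the group were those of a pair of steroid dehydrogenases. Akr1c18 is the 20-alpha-hydroxysteroid dehydrogenase that inactivates progesterone and can also make prostaglandin F. Its signal was 12.05 in parental and 6.81 in lung-recovered cells, a ratio of -5.24, or 37.8-fold lower, so that 2.65% of the parental signal remained. This was the lowest ratio among the 13332 measured genes, although a gene that reaches the floor has only a bound and may lie lower. The lung-recovered signal of Akr1c18 was still 2.22 above the floor on the log2 scale.

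Akr1c14 is a 3-alpha-hydroxysteroid dehydrogenase that acts on 5-alpha-reduced steroids such as dihydrotestosterone. It read 9.33 in parental and 5.75 in lung-recovered cells, a ratio of -3.58, or 12.0-fold lower, and ranked 14 from the lowest ratio. Its lung-recovered signal was 1.16 above the floor, so with the floor at the 60th percentile its ratio became a bound of -3.18. Both genes were thus far lower but not at the floor in CMT-93-PM1.

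Akr1c6, a hydroxysteroid dehydrogenase (also named Hsd17b5) known mainly from liver, was barely detected. It read 4.82 in parental and 4.63 in lung-recovered cells, which is 0.13 and 0.04 above the floors. Its ratio of -0.19 is about the size of the spread between probe sets and gives no direction. The 60th percentile floor left it unmeasured. Akr1c6 therefore adds little to the comparison, and the 5 genes with clear parental signal are the 5 that were lower.

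Akr1c12, Akr1c13 and Akr1c19, reductases of the same subfamily whose physiological substrates are less settled, formed a group with smaller and similar ratios. Akr1c12 read 9.19 and 7.52, 3.18-fold lower with a ratio of -1.67. Akr1c13 read 10.20 and 8.80, 2.64-fold lower with a ratio of -1.40. Akr1c19 read 7.77 and 6.34, 2.69-fold lower with a ratio of -1.43. The 3 ratios lay within 0.27 of each other, inside the 90th percentile of the spread between probe sets, so these data give them no order. They ranked 118, 175 and 163 from the lowest of all measured genes. Signals of Akr1c12 and Akr1c13 may include each other, since a further probe set on the array is annotated to more than 1 Akr1c gene and was left out for that reason. Without probe sequences, how far the paralogs share signal was not tested, and this holds for the other Akr1c genes as well.

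Outside the Akr1c subfamily, Akr1a1 stayed close to its parental signal and Akr1b8 was lower by less than 2-fold. Akr1a1 was read by 4 probe sets, which gave 13.12 and 13.34, 11.88 and 12.07, 12.36 and 12.54, and 12.39 and 12.53 in parental and lung-recovered cells. All 4 were slightly higher in the lung-recovered line, with ratios from 0.14 to 0.22, or 1.10-fold to 1.16-fold. Agreement between probe sets here concerns the same 2 RNA samples and is no replicate of the lines. Akr1b8 read 10.69 and 10.00, 1.61-fold lower with a ratio of -0.69. Its ratio was larger in size than the 90th percentile of the spread between probe sets and ranked 666 from the lowest, above the 5 lower Akr1c genes. That spread does not measure variation between cultures or arrays.

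**Figure D2:**
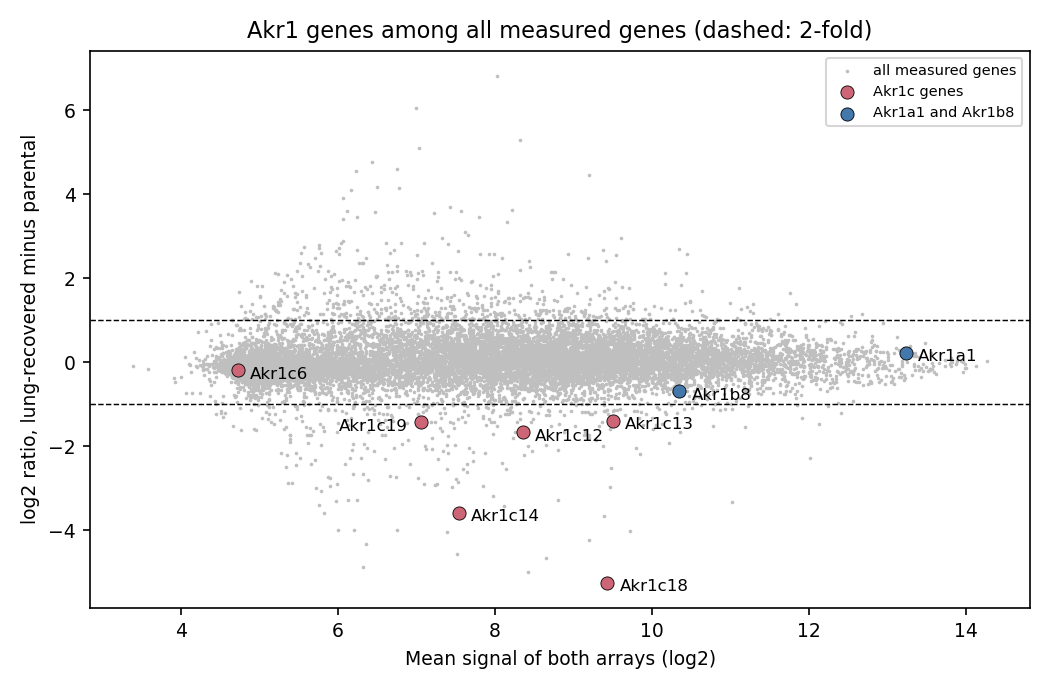
Ratio of the lung-recovered to the parental array (vertical axis, log2) against the mean signal of both arrays (horizontal axis, log2) for 13332 measured genes (grey), with the Akr1c genes and both other Akr1 genes marked and 2-fold lines dashed. Akr1c18 lies at the lower edge of the whole cloud at -5.24, Akr1c12, Akr1c13 and Akr1c19 lie just under the lower 2-fold line, and Akr1a1 lies at 0.22.

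Of 11 listed relatives of these aldo-keto reductases, 10 were on the array, 6 were measured and 0 passed 2-fold, with a median ratio of -0.09. With 2.55% of all measured genes lower, 0 of 6 does not set the relatives apart. The lowest was the Akr1c-like gene Akr1cl, at 5.41 and 4.91 with a ratio of -0.50. Akr7a5, which reduces succinic semialdehyde and aflatoxin aldehyde, was the brightest at 9.28 and 9.88, with a ratio of 0.60, and its second measured probe set gave 0.76. Akr1e1, an anhydrofructose reductase, read 8.65 and 8.85. Akr1b10 read 8.54 and 8.37 by its brightest probe set, with ratios of -0.17 and, by a dimmer one, -0.65. Akr1c20 and Akr1c21, the remaining Akr1c genes of the list with a probe set, were at the floor on both arrays, as was Akr1d1.

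Map order placed the lower genes next to each other. Among genes with a named probe set, in the order of assembly GRCm38.p6, the chromosome 13 cluster ran Akr1c14, Akr1c18, Akr1c13, Akr1c19, Akr1c12, Akr1c6, Akr1c20, Akr1c21 and Akr1e1. The first 5 of these were the 5 lower genes, and Akr1e1 at the far end had a ratio of 0.20. Between them, Akr1c6 lay 0.13 above the parental floor, and Akr1c20 and Akr1c21 were at the floor on both arrays. A lower signal could not have been seen in these genes, so where the lower run ends is not known. Of the 5 genes on either side of the cluster, 7 of 10 were measured and 0 passed 2-fold, with a median ratio of 0 and a range from -0.65 for the phosphofructokinase gene Pfkp to 0.82 for the transcription factor gene Klf6. Around Akr1b8 and Akr1b10 on chromosome 6, 8 of 10 flanking genes were measured, 0 passed 2-fold and the median ratio was -0.09. With 2.55% of all measured genes lower and 4.42% higher, 0 of 7 and 0 of 8 do not set the flanking genes apart.

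**Figure D3:**
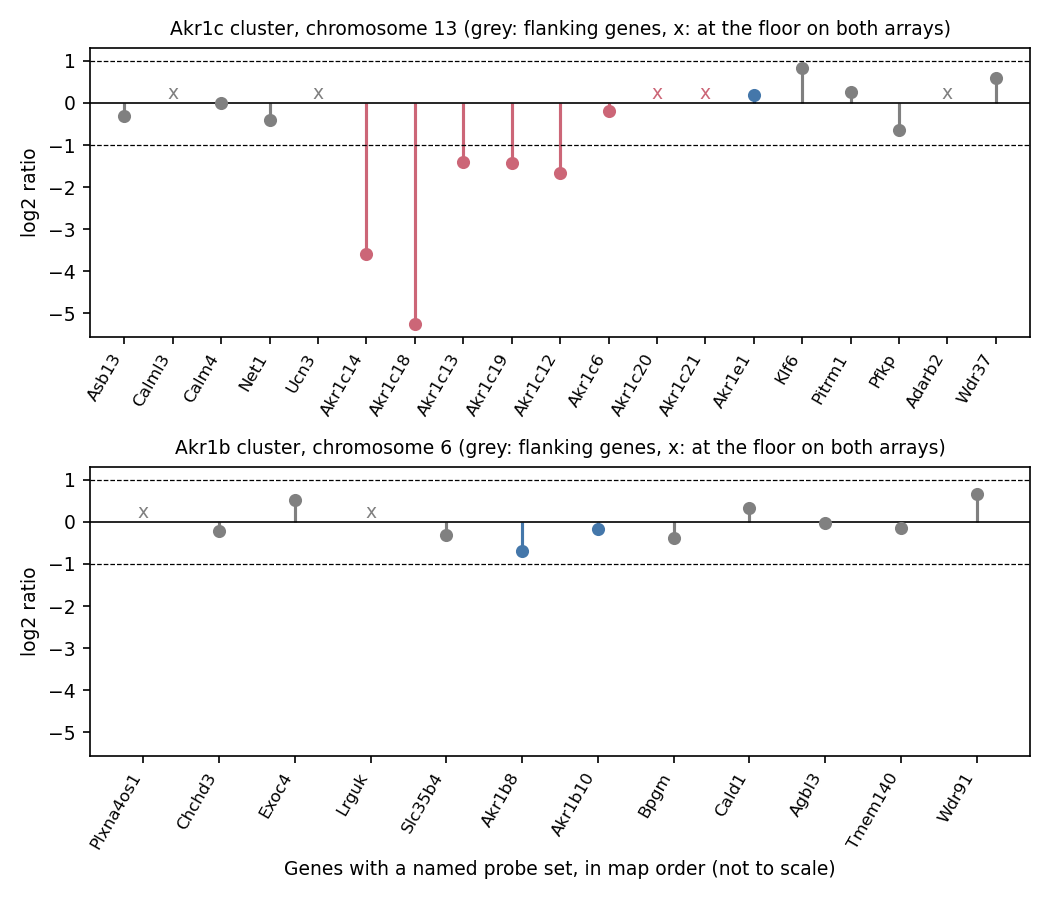
Log2 ratio (vertical axis) of genes with a named probe set in map order (horizontal axis, not to scale) across the Akr1c cluster on chromosome 13 and the Akr1b cluster on chromosome 6, with 5 flanking genes on each side in grey, genes at the floor on both arrays as x and 2-fold lines dashed. In the upper panel the 5 genes from Akr1c14 to Akr1c12 lie below -1, while the flanking genes of both clusters lie between -0.65 and 0.82.

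The sequences before the gene starts are shown for the lower Akr1c genes because these neighbours were lower together but in a larger and a smaller step. RefSeq windows on GRCm38.p6 were found for 9 of the 10 genes, and the 250 bases before the annotated start are given 5′ to 3′ on the strand of the gene. Those of the smaller step lie at chr13:4279400-4279649 on the minus strand for Akr1c12, at chr13:4190937-4191186 on the plus strand for Akr1c13 and at chr13:4233490-4233739 on the plus strand for Akr1c19. Capitals mark every match to CATTAG, a run picked after these sequences were read.
Akr1c12: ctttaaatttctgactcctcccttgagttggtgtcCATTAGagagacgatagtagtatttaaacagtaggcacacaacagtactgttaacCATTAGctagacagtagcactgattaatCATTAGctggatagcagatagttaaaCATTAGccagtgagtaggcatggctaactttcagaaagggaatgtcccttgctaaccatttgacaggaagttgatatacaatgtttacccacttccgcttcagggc
Akr1c13: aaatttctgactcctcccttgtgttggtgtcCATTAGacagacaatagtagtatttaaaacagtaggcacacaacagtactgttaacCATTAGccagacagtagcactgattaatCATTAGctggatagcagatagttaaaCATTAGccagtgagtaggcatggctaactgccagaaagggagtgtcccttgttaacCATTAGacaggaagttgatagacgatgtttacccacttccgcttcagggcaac
Akr1c19: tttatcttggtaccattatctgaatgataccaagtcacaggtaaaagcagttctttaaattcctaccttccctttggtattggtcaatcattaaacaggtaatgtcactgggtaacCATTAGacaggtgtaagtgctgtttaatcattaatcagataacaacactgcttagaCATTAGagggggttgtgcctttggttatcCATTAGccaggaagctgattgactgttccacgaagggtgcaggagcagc

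Akr1c12 and Akr1c13 had 95.1% identical bases over 247 aligned positions. Akr1c13 and Akr1c19 had 59.1% over 259, and Akr1c12 and Akr1c19 54.7% over 254. CATTAG was found 4 times before Akr1c12, 5 times before Akr1c13 and 3 times before Akr1c19, always on the gene's strand. On either strand, 6.36% of 32851 windows of the same length, from 27025 genes, held it at least once, and 8 windows (0.0244%) held it 3 times or more, these 3 among them. CATTAG was picked after these windows were read, so their place among the 8 was set by that choice. Akr1c6 held it once on the gene's strand, at 209 to 204 bases before the start. The windows of Akr1c12 and Akr1c13 are nearly the same sequence, so their matches are not separate observations, and a match is no evidence of a bound factor.

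The windows of the 2 genes with the lowest ratios, and of Akr1b8 for contrast, follow in the same form. They lie at chr13:4150647-4150896 on the minus strand for Akr1c18, at chr13:4059341-4059590 on the plus strand for Akr1c14 and at chr6:34353896-34354145 on the plus strand for Akr1b8.
Akr1c18: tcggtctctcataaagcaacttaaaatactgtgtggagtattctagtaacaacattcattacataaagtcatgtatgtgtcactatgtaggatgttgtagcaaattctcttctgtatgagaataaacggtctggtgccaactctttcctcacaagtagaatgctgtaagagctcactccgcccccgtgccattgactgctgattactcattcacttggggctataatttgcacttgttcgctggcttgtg
Akr1c14: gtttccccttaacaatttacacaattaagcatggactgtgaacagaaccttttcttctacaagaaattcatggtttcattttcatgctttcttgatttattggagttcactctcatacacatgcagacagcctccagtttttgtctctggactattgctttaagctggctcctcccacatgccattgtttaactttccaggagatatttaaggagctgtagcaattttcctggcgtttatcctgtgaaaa
Akr1b8: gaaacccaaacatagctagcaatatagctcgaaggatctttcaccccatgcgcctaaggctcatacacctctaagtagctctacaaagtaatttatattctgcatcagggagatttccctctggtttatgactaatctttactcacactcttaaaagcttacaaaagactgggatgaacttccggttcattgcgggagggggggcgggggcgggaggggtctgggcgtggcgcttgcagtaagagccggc

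These held no CATTAG. Akr1c18 and Akr1c14 had 54.1% identical bases over 268 aligned positions. Pairs of an Akr1c gene with Akr1a1, Akr1b7 or Akr1b8 had 43.5% to 52.0%. The remaining pairs of Akr1c genes lay inside that range, from 47.1% to 51.6%, while Akr1b7 and Akr1b8 had 57.3%. Other letters searched on both strands were the antioxidant response element core TGACNNNGC, the AP-1 site TGANTCA and the TATA box TATAAA, which 10.2%, 6.75% and 12.4% of all windows held. Neither TGACNNNGC nor TGANTCA occurred in any of the 9 Akr1 windows. TATAAA occurred once in that of Akr1b8 and once in that of Akr1c6, at 159 to 154 and at 164 to 159 bases before the start, away from the usual place of a TATA box.

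Akr1c enzymes act within steroid pathways, whose other genes were listed. Of 30 listed steroid conversion enzymes, 24 were on the array, 16 were measured, 1 was higher past 2-fold and 0 lower, and the median ratio was -0.07. These counts are near the shares of all measured genes, 4.42% higher and 2.55% lower. The higher gene was Cyp11a1, the side-chain cleavage enzyme that begins steroid synthesis, at 7.19 and 8.89, or 3.25-fold, by its brightest probe set. Its other probe sets were dim, and the median over its probe sets gave a ratio of 0.82. Hsd17b12, an enzyme of fatty acid elongation and the brightest of the list, read 11.70 and 11.64. Of the steroid receptors, 4 of 7 on the array were measured and 0 passed 2-fold, with Pgrmc2 brightest at 9.76 and 10.01. The progesterone receptor gene Pgr, whose ligand Akr1c18 inactivates, was at the floor on both arrays, and the glucocorticoid receptor gene Nr3c1 read 9.29 and 10.10.

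Among prostaglandin genes, 12 of 20 on the array were measured, 2 of them higher past 2-fold and 0 lower, around a median ratio of -0.05. These counts are too small to set the list apart from the shares of all measured genes, 4.42% higher and 2.55% lower. Ptgds, a prostaglandin D synthase, read 8.27 and 9.49, 2.33-fold higher, while the dimmer probe set gave 3.43-fold. Abcc4, an exporter of prostaglandins and cyclic nucleotides, read 10.15 and 11.22, 2.10-fold higher. The inducible cyclooxygenase gene Ptgs2, the breakdown enzyme gene Hpgd and the prostaglandin F receptor gene Ptgfr were at the floor on both arrays.

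Other enzymes of carbonyl substrates were read against the same shares of all measured genes, 4.42% higher and 2.55% lower. Of 22 measured carbonyl and retinal reductases, 2 were higher and 0 lower, with a median ratio of 0.08 and 10 ratios below 0, counts too small to set them apart from those shares. The retinal reductase gene Dhrs3 read 6.71 and 8.16, 2.73-fold higher, and Ptgr1, which reduces prostaglandins and leukotrienes, was at least 2.10-fold higher from the parental floor. A floor at the 60th percentile left Ptgr1 unmeasured. Rdh10, a retinol dehydrogenase and the brightest of this list, read 12.48 and 13.11. Of 15 measured aldehyde dehydrogenases, 3 were higher and 0 lower, with a median ratio of 0.11. These were the retinal dehydrogenase gene Aldh1a1, the brightest, at 10.93 and 12.58 (3.14-fold), its close relative Aldh1a7 at 9.67 and 10.92 (2.38-fold) and Aldh6a1, a mitochondrial enzyme of valine breakdown, at 7.39 and 8.83 (2.71-fold). Aldh1a1 and Aldh1a7 are close paralogs, so their signals may include each other.

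The polyol pathway list, around the step of aldose reductase, had 6 measured genes, 0 past 2-fold and a median ratio of -0.02, with the hexokinase gene Hk1 brightest at 10.58 and 10.08. The aldose reductase gene Akr1b3 and the listed gene Sord gave no values here, so the list does not read the pathway's own steps. Of 5 measured genes of bile acid and sterol handling, 1 was higher and 0 lower, the sterol hydroxylase gene Cyp27a1 at 6.44 and 7.53 (2.13-fold). The median of this list was 0.39, which a floor at the 20th percentile turned to -0.04. With 6 and 5 measured genes, neither list can be set apart from the shares of all measured genes, 4.42% higher and 2.55% lower.

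A further list held Nfe2l2, the gene of the transcription factor Nrf2 that induces many detoxifying reductases, with its regulator Keap1 and known targets. Of 27 measured genes, 3 passed 2-fold upward and 3 downward, where the shares of all measured genes were 4.42% and 2.55%. The median ratio was -0.14, and 18 ratios were below 0 and 9 above, where 48.7% of all measured genes were below 0. Lower were the glutathione transferase gene Gsta2, at 9.41 and 6.87 (5.82-fold), the malic enzyme gene Me1, at 12.85 and 11.39 (2.75-fold, while the dimmer probe set gave 2.45-fold), and the cystine transporter gene Slc7a11, at 9.32 and 8.07. Slc7a11 was 2.38-fold lower by this probe set but read 7.95 and 7.87 by its other. Higher were Osgin1, at 9.37 and 11.49 (4.35-fold), Abcc4, and Nfe2l2 itself, at 10.12 and 11.21 (2.13-fold, against 1.33-fold from the dimmer probe set). The ferritin gene Fth1, the brightest, read 13.96 and 13.97, and the classical target Nqo1 read 4.73 and 4.48, next to the floor.

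**Figure D4:**
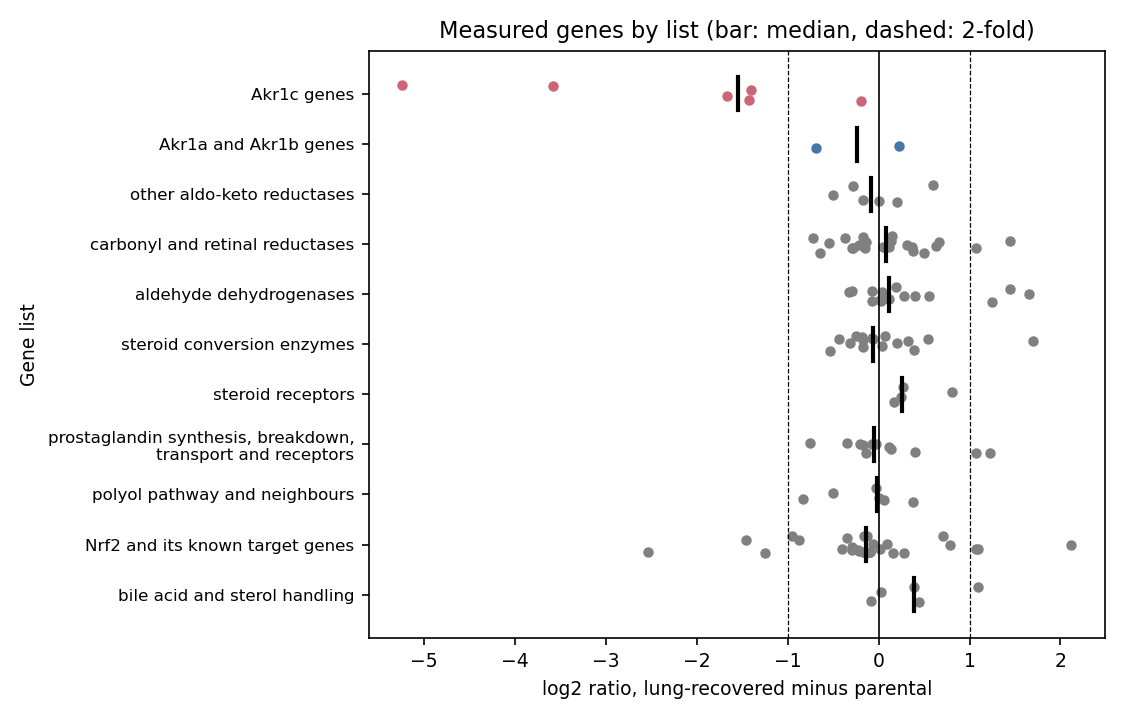
Log2 ratio (horizontal axis) of each measured gene in the Akr1c and the Akr1a and Akr1b groups and in 9 lists of related genes (rows), with the median as a bar, 2-fold lines dashed and points spread vertically for visibility only. The Akr1c median of -1.55 lies left of the lower 2-fold line, while the medians of the 9 lists lie between -0.14 and 0.39.

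The genes most like Akr1c18 were those with the closest pair of log2 signals, a likeness over 2 arrays only. In order of distance they were Ndrg4 (11.32 and 7.08), the glucuronosyltransferase gene Ugt2b34 (11.72 and 7.71), the noncoding RNA Snhg4 (11.22 and 7.56), the cornified envelope gene Sprr1b (10.97 and 6.32) and the glucuronosyltransferase gene Ugt2b36 (10.91 and 5.93). The distances ran from 0.78 to 1.44 on the log2 scale, so no gene matched Akr1c18 closely. The second probe sets of Ndrg4 and Ugt2b34 gave ratios of -4.31 and -3.96.

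CMT-93-PM1 came from tumour tissue, so markers of host lung cells are given beside the Akr1c ratios. Each sum below covers every marker of its list on the array, those at the floor included, and so holds background signal. Of 8 lung epithelial markers on the array, 4 passed the parental and 3 the lung-recovered floor, and their summed linear signal was 321 and 239, with Scgb1a1, Nkx2-1, Sftpa1 and Scgb3a2 at the floor on both. Of 8 leukocyte markers, 5 were above the floor on each array, with sums of 302 and 491 and Ptprc, Adgre1 and Itgam at the floor. Cd68 had a ratio of 1.82 (3.53-fold), while Cd3e, Cd79a and Lyz2 had ratios of -0.01, -0.15 and 0. The 3 probe sets of Csf1r differed, with ratios of 1.12 (2.17-fold), 0.78 and 0.02 from the brightest to the dimmest. Of 6 endothelial markers, 2 were above the floor on each array, with sums of 491 and 726. Pecam1, Emcn and Vwf were at the floor on both arrays. Cdh5 was at least 24.4-fold higher by its brighter probe set and at least 1.78-fold by its dimmer one, both from the parental floor. Tek was at least 15.8-fold lower. Of 8 fibroblast and mural cell markers, 4 were above the floor on each array, with sums of 227 and 201 and Col1a1, Col3a1, Pdgfra and Lum at the floor. The sum of the 11 colorectal epithelial markers was 22712 in parental and 30009 in lung-recovered cells, the brightest being Krt19 at 12.72 and 12.98, and Cdh17 was 2-fold higher. The part of other cells in the Akr1c ratios was not tested.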

How the data were processed

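The deposited values are log2 signals per probe set for 1 parental and 1 lung-recovered array. The base was taken from the values, and MAS5 is named, without its role, per the submitters' processing notes. Between-array scaling by the authors is not stated there. The 2% trimmed means on the linear scale differed by 3.98%, inside a limit of 5%, so the values were used as deposited. Of 45037 probe sets, 34945 had 1 symbol, updated by Entrez identifier to GRCm38.p6, 932 had several and 9160 were not listed; the latter 932 and 9160 were not named. The probe set with the highest mean stood for a gene. Genes were counted at 2-fold, with no test and no p-value, and "at least" marks a bound against a floor. The number of arrays limits the precision.

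The members and lists were chosen with earlier results of these data known. Named were all members, list genes past 2-fold and the brightest of each list, the 5 genes nearest to Akr1c18 and the flanking genes. Receptors, enzymes and markers named at the floor or within 2-fold were chosen after their values were seen, as were CATTAG and the windows shown. Windows were aligned in pairs end to end with free end gaps (Biopython 1.88; match 2, mismatch -1, gap opening -4, extension -0.5). Calculations used Python 3.11.15, pandas 2.3.3 and statsmodels 0.14.6 and were tested on simulated data. The alternatives tried were equal medians, quantile normalization, a lowess fit (span 0.3), floors at the 20th and 60th percentiles or none, the median over probe sets, and leaving out probe sets with suffix _s, _x or _a.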

Additional observations from a re-analysis of the deposited data

How the results depend on the processing

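Under all 8 alternatives, 5 Akr1c genes stayed at least 2-fold lower and 0 of the Akr1a and Akr1b genes passed 2-fold lower. The median ratio of the Akr1c genes ran from -1.45 with equal medians to -1.67 with the floor at the 60th percentile. Without suffixed probe sets Akr1a1 drops out, which leaves Akr1b8 alone, so the Akr1a and Akr1b median became -0.69 and the difference between the subfamilies -0.86. Akr1c18 ranged from -5.32 to -5.14, Akr1c14 from -3.64 to -3.18, Akr1b8 from -0.76 to -0.59 and Akr1a1 from 0.19 to 0.32. Outside the group, the 2-fold call of Cd68 (0.87) and Cdh17 (0.59) was lost under the 60th percentile floor, and that of Csf1r (0.78), Cyp11a1 (0.82), Nfe2l2 (0.75) and Slc7a11 (-0.67) with the median over probe sets, which also took Cdh5 from 4.61 to 2.72. Dhrs3, Gsta2 and Ndrg4 have only suffixed probe sets and gave no value without these, and Ptgr1 was unmeasured under the 60th percentile floor. No paired analysis was possible because each line had 1 array. Signals near the floor limit Akr1c6 and, on the lung-recovered array, Akr1c14.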
